A study of Oryza sativa with 4 samples.

Results

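Glutaredoxins, protein disulfide isomerase-like proteins (PDIL) and glutathione S-transferases (GST) are 3 families of enzymes that work on thiols and disulfides. Their genes were followed in rice leaves labelled as overexpressing OsRR6. Genes were taken by name from the RefSeq rice gene table: every gene with a symbol or synonym that starts with GRXC, GRXS, PDIL, GSTU, GSTF or GSTZ and a number. This gave 42 genes, of which 24 are glutaredoxins, 12 are PDIL genes and 6 are GST genes. Of these, 35 have a probe set of their own on the array, out of 17905 genes with one. For a gene with several probe sets the one with the highest mean signal was used. All 35 passed the filter on dim probe sets, and 33 were above background on all 4 arrays. Not measured here were GRXC2, GRXC4, GRXC5, GRXC11, GRXC13, GRXC14 and PDIL5-3.

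Glutaredoxins are small proteins that use glutathione to reduce disulfides and to take glutathione off other proteins. The letter C or S in their names stands for a cysteine or a serine as the last residue of the active site. Plants also have a class of glutaredoxins called ROXY, which in Arabidopsis bind TGA transcription factors and act in petal and anther development. PDIL proteins form and rearrange disulfide bonds of proteins that fold in the endoplasmic reticulum. GST enzymes join glutathione to reactive or foreign compounds. The tau (GSTU) and phi (GSTF) classes are known in plants for detoxifying herbicides, and the zeta class (GSTZ) for a step of tyrosine breakdown.

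The 4 arrays hold leaf RNA of Nipponbare rice, 2 labelled OsRR6-overexpressor (plasmid pActnos/Hmz-OsRR6) and 2 labelled empty vector control (pActnos/Hmz). All plants were primary transformants (T0) regenerated from callus, carried the vector, were selected on hygromycin and were sampled 75 days after germination, having grown in water culture to heading. OsRR6 belongs to the type-A response regulators, which dampen cytokinin signalling. How many lines or plants a sample holds, and whether replicates were different plants, is not stated in the labels. The p-values therefore reflect the spread among these 4 samples alone, and that spread may be technical.

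The OsRR6 probe set (RR6, LOC4337372) read 2264 and 1989 on the arrays labelled overexpressor and 2559 and 2733 on the control arrays, so its signal was not higher where the label says it should be (log2 change -0.32, limma adjusted p = 0.0597). Where the probe set lies relative to the transgene is not stated in the files or labels used here. Each direction below is that of the arrays labelled overexpressor relative to control. Signals are on a linear scale, log2 changes are differences of log2(signal + 3.6), and group values are means ± SD over 2 arrays. The trimmed mean signal was 500.1 on every array. Background, taken from control probe sets that match no rice transcript, lay at 43.4 and 39.2 on the overexpressor arrays and at 30.0 and 36.8 on the control arrays. With 2 arrays a group the smallest two-sided p of an exact permutation test is 0.33, so single genes rest on the limma fit across all probe sets. In whole-leaf RNA, fewer cells of a type and less RNA per cell cannot be told apart.

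At an adjusted p of 0.05, 9 of the 35 measured genes passed as higher and 8 as lower, leaving 18 that did not pass. That is 48.6% past the threshold, against 28.5% of all 28629 tested probe sets (15.4% higher and 13.1% lower). Bright probe sets passed more often: 34.1% of the probe sets that are the brightest of their gene passed, and 38.9% of those at or above the 75th percentile of signal. At or above that percentile 15 of 29 of these genes passed (51.7%). Whether the share differs from that of other genes was not tested. In 28 of the 35 genes the arrays of the groups did not overlap, against 68.1% of all tested probe sets. The median change was 0.05, against 0.08 over all tested probe sets. A change of at least 2-fold in the fit was seen in GRXC1, GRXS2, GRXS3 and GSTF1, which is 4 of 35 genes, against 9.33% of all tested probe sets. The glutaredoxins held 5 higher and 6 lower genes, the PDIL genes 3 higher and 0 lower, and the GST genes 1 higher and 2 lower.

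**Figure D1:**
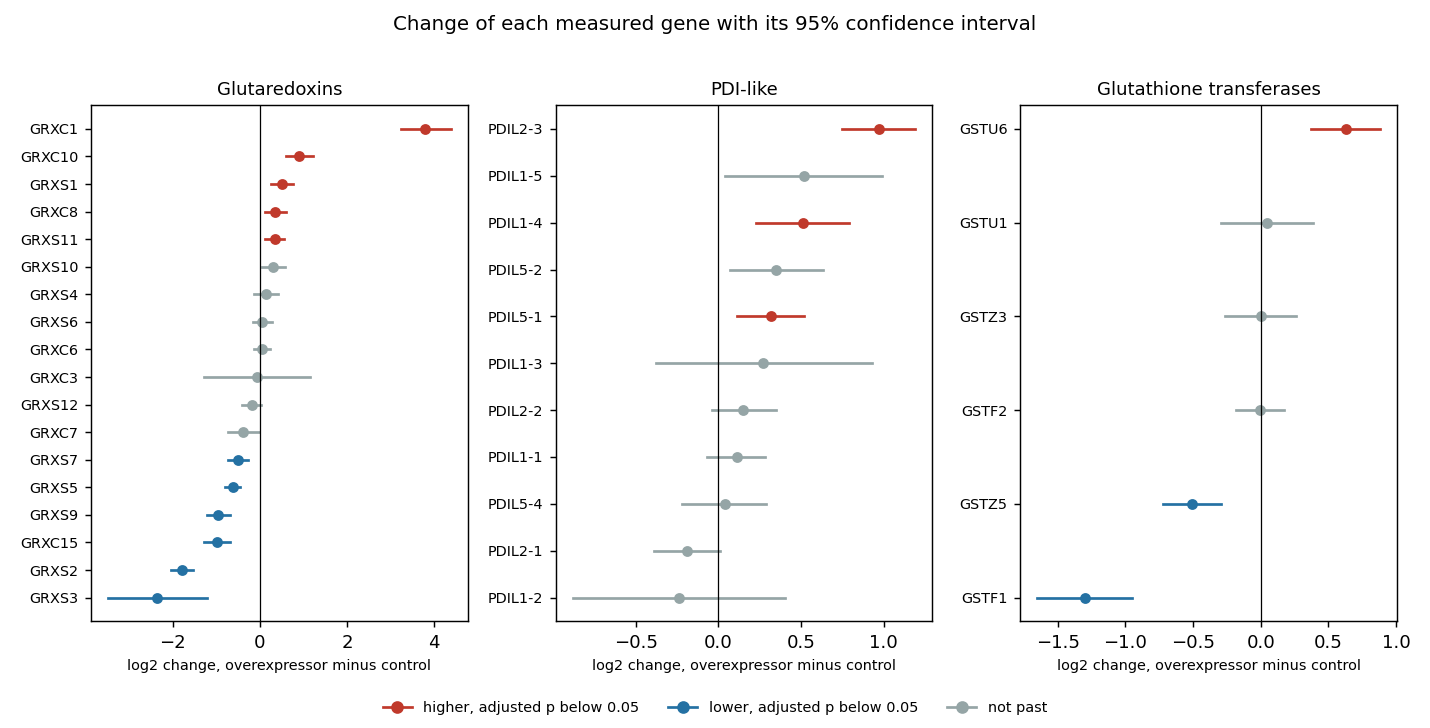
Log2 change (overexpressor minus control) of the 35 measured genes by family, points with 95% confidence intervals from limma, coloured by whether the gene passed an adjusted p of 0.05. GRXC1 at 3.80 stands far to the right of the other glutaredoxins, which lie between -2.35 and 0.90, and the PDIL genes lie between -0.24 and 0.97.

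The glutaredoxins held both the largest rise and the largest fall among the 35 genes. Of 18 measured genes 5 rose and 6 fell past the threshold and 7 stayed short of it, with a median change of -0.01. That is 61.1% past it, against 28.5% of all tested probe sets and 34.1% of those that are the brightest of their gene. At or above the 75th percentile of signal, where 15 of the 18 lie, 38.9% of all probe sets passed. The difference between these shares was not tested. Among the 7 measured GRXC genes 3 were higher and 1 was lower (57.1% past the threshold). Among the 11 GRXS genes 2 were higher and 5 were lower (63.6%). A difference between these subgroups was not tested.

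GRXC1 (LOC4325734) read 1654 and 1038 on the overexpressor arrays and 88.4 and 92.7 on the control arrays. Both overexpressor arrays lay far above both control arrays, and the overexpressor arrays were well apart from each other (1345.8 ± 436 against 90.5 ± 3.04). The log2 change was 3.80 (SE 0.24, 95% interval 3.23 to 4.38, adjusted p = 0.000383). All 4 values were above background, but the control signal was low, and the size of the fold of 14.0 in the fit depends on it.

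GRXC10 (LOC4351046) read 966 and 834 on the overexpressor arrays and 471.5 and 485.3 on the control arrays, with no overlap (log2 change 0.90, SE 0.13, adjusted p = 0.00458). In the RefSeq gene table GRXC10 stands next to GRXC11, with GRXC13 close by, and neither of these was measured here. Whether the GRXC10 probe set also takes up their transcripts was not tested. GRXC8 (LOC4341733) read 3976 and 4003 on the overexpressor arrays and 2882 and 3384 on the control arrays, a smaller rise (0.35, SE 0.10, adjusted p = 0.0429).

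GRXC15 (LOC4352426) was the lower one among the GRXC genes. It read 1266 and 1566 on the overexpressor arrays and 2917 and 2672 on the control arrays, so the groups lay clearly apart (log2 change -0.99, SE 0.13, adjusted p = 0.00301). It stands next to GRXC14, not measured here, in the gene table.

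The 3 other GRXC genes did not pass. GRXC6 had a strong signal that hardly differed, 10283.8 ± 642 on the overexpressor arrays and 9953.0 ± 53.6 on the control arrays (0.046, 95% interval -0.14 to 0.23). GRXC7 had a log2 change of -0.38 (95% interval -0.73 to -0.03, adjusted p = 0.0990). GRXC3, also named ROXY2, read 38.9 and 106.2 on the overexpressor arrays and 59.4 and 77.9 on the control arrays. These values lie near background, one of them below it, and the groups overlapped (95% interval -1.28 to 1.15). A change of GRXC3 was not detectable at this signal. GRXC5, also named ROXY1, was not measured. Whether other glutaredoxins measured here belong to the ROXY class was not examined.

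Among the GRXS genes the 2 with the largest decreases were GRXS3 and GRXS2. GRXS3 (LOC4327691) read 88.8 and 30.6 on the overexpressor arrays and 260.1 and 307.6 on the control arrays. The lower of the overexpressor values was not above background, so the log2 change of -2.35 (adjusted p = 0.0134, SE 0.47, 95% interval -3.48 to -1.22) rests on 1 overexpressor array with a measured signal. It was -1.63 without overexpressor replicate 2, the array at background, and -3.07 without overexpressor replicate 1. GRXS2 (LOC4327316) read 942 and 860 on the overexpressor arrays and 3297 and 2957 on the control arrays. Replicates were close here and the groups far apart (log2 change -1.79, SE 0.11, adjusted p = 0.000336). Its probe set carries the suffix s, which the array's maker gives to probe sets shared by several transcripts.

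GRXS9, GRXS5 and GRXS7 fell as well. GRXS9 (LOC9269297) read 3668 and 3279 on the overexpressor arrays and 7276 and 6135 on the control arrays (log2 change -0.95, SE 0.11, adjusted p = 0.00226). GRXS5 (LOC4326324) had the tightest replicates of the decreases, 6137 and 6073 on the overexpressor arrays and 9327 and 9450 on the control arrays (-0.62, SE 0.07, adjusted p = 0.00209). GRXS7 (LOC4334801), which encodes a chloroplast glutaredoxin, read 2299 and 2027 on the overexpressor arrays and 3020 and 3115 on the control arrays (-0.51, SE 0.10, adjusted p = 0.0117).

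GRXS1 (LOC4327130) was higher, with 2607 and 2282 on the overexpressor arrays and 1680 and 1766 on the control arrays (log2 change 0.50, SE 0.10, adjusted p = 0.0146). GRXS11 (LOC4349033), a larger protein with several glutaredoxin domains, has 2 probe sets that went opposite ways. The brighter one read 5722 and 5069 on the overexpressor arrays and 4366 and 4164 on the control arrays (0.34, adjusted p = 0.0355), and counts as higher. The other read 2988 and 3414 on the overexpressor arrays and 4836 and 5099 on the control arrays (-0.64, adjusted p = 0.00519). Both differences are larger than the spread between replicates, so the direction of GRXS11 as a gene is uncertain.

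GRXS4, GRXS6, GRXS10 and GRXS12 did not pass, with log2 changes between -0.19 and 0.31. GRXS12 read 2666.0 ± 143 on the overexpressor arrays and 3039.1 ± 182 on the control arrays (95% interval -0.41 to 0.03). GRXS10 had a log2 change of 0.31 (95% interval 0.05 to 0.57, adjusted p = 0.0750), and its 2 dimmer probe sets did not pass either (0.09 and 0.80). GRXS6 was close to level (0.06, 95% interval -0.16 to 0.28).

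**Figure D2:**
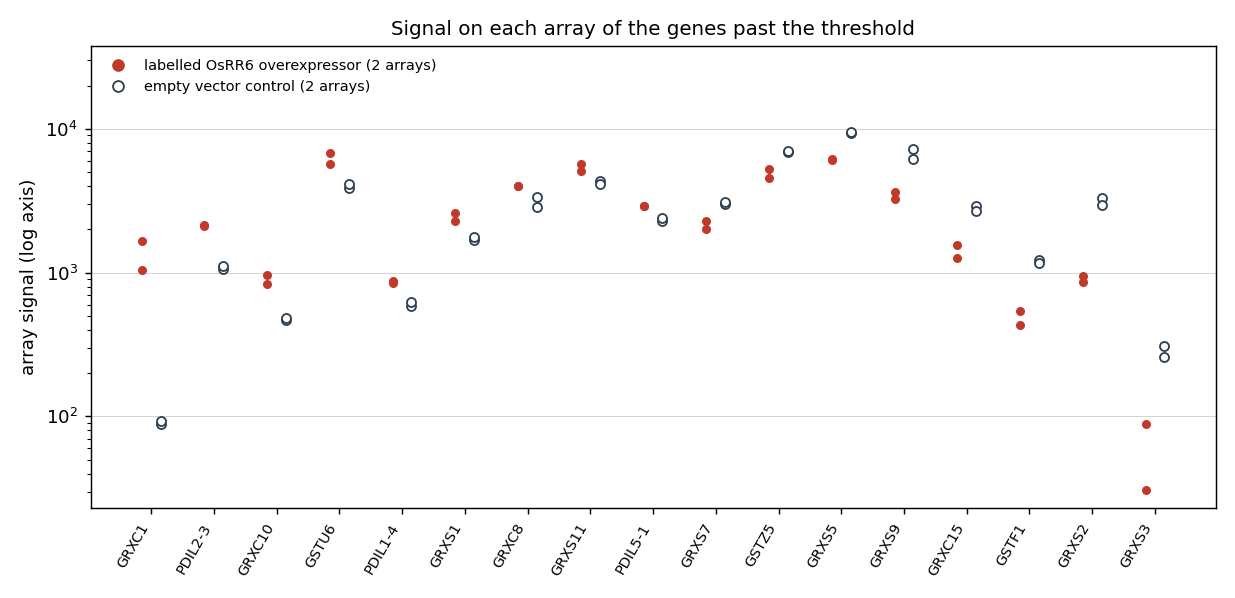
Array signal (log axis) of the 17 genes past the threshold, ordered from the largest rise to the largest fall, with the 2 arrays labelled overexpressor as filled points and the 2 control arrays as open points. In each gene the groups do not overlap, and the overexpressor arrays are furthest apart in GRXC1 (1654 and 1038) and GRXS3 (88.8 and 30.6).

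Among the PDIL genes the changes lay between -0.24 and 0.97, and those past the threshold were all rises. Of 11 measured genes 3 passed as higher and 0 as lower, which is 27.3% past the threshold against 28.5% of all tested probe sets. At or above the 75th percentile of signal, where 8 of the 11 lie, 38.9% of all probe sets passed. The family's median was 0.27, against 0.08 over all tested probe sets, and it was 0.14 without overexpressor replicate 1 and 0.15 without probe sets that may hybridise to several transcripts. PDIL2-3, PDIL1-4 and PDIL5-1 rose.

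PDIL2-3 (LOC4347226, also named PDIL5-1), known in rice endosperm for its place at the protein bodies that hold prolamins, read 2153 and 2103 on the overexpressor arrays and 1060 and 1108 on the control arrays. The groups lay far apart relative to the replicates (log2 change 0.97, SE 0.09, adjusted p = 0.0012). Its only probe set carries the suffix x, given where some probes also match other sequences. PDIL1-4 (LOC4327971, also named PDIL2-1) read 851 and 870 on the overexpressor arrays and 585 and 623 on the control arrays (0.51, SE 0.11, adjusted p = 0.0203). PDIL5-1 (LOC4332486, also named PDIL6-1 in the second of 2 overlapping naming schemes) read 2895 and 2904 on the overexpressor arrays and 2273 and 2387 on the control arrays (0.32, SE 0.08, adjusted p = 0.0338).

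PDIL1-1 (LOC4350002), the classical isomerase needed for glutelin maturation in the rice endosperm, had strong signals of 14902 and 14219 on the overexpressor arrays and 13266 and 13781 on the control arrays. The groups did not overlap, but the change of 0.11 did not pass (95% interval -0.07 to 0.28, adjusted p = 0.307). PDIL2-2 had a log2 change of 0.15 (95% interval -0.04 to 0.35) and PDIL2-1 (LOC4337858, also named PDIL4-1) of -0.19 (95% interval -0.39 to 0.01), and neither passed. A further probe set of PDIL2-1 had a change of 0.013. PDIL1-5 (0.52, 95% interval 0.04 to 0.99, adjusted p = 0.0963) and PDIL5-2 (0.35, 95% interval 0.07 to 0.63, adjusted p = 0.0658) did not pass after adjustment. PDIL5-4 had a change of 0.039. PDIL1-2 and PDIL1-3 had low signals, 94.7 ± 12.7 and 126.5 ± 26.7 on the overexpressor arrays against 111.8 ± 3.39 and 103.0 ± 6.72 on the control arrays, and neither passed.

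PDIL proteins work with chaperones of the same compartment. A further list held genes for folding in the endoplasmic reticulum and for the response to unfolded proteins. Of 10 tested, 6 rose past the threshold, 0 fell past it and 4 stayed short of it (median 0.31). The 10 include IRE1, BZIP39, BZIP50 and BZIP60, genes of that response rather than chaperones, and BZIP60 is 1 of the 6. Over all tested probe sets 15.4% were higher, 28.5% passed in either direction and the median was 0.08. The share past the threshold was 34.1% among the brightest probe sets of all genes, and its difference from the list was not tested. ERDJ3A, a cochaperone gene, read 469.2 and 279.4 on the overexpressor arrays and 115.8 and 102.5 on the control arrays (log2 change 1.70, SE 0.28, adjusted p = 0.00731). BZIP60, a transcription factor gene of the response to unfolded proteins, read 1358 and 1149 on the overexpressor arrays and 550 and 489 on the control arrays (1.26, SE 0.14, adjusted p = 0.00176). ERDJ3B rose by 0.74 (SE 0.12, adjusted p = 0.00654), and the chaperone genes BIP1 and CRT1 and the cochaperone gene ERDJ7 rose by 0.35, 0.27 and 0.36. The sensor gene IRE1 (0.18) and the transcription factor genes BZIP50 (-0.10) and BZIP39 (0.07) did not pass.

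**Figure D3:**
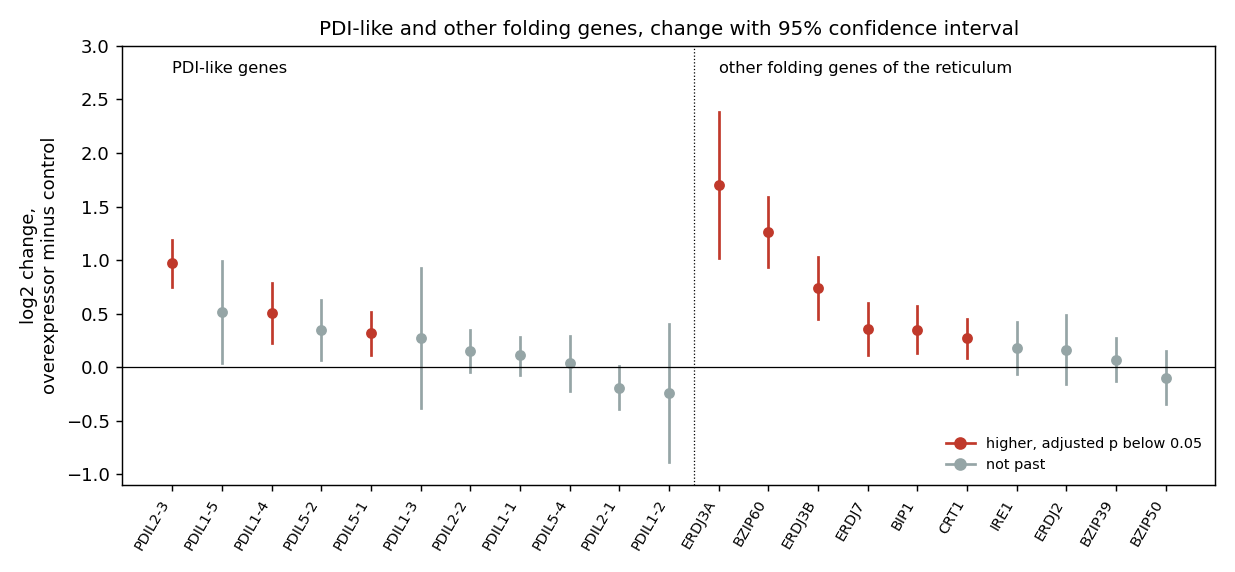
Log2 change (overexpressor minus control) with 95% confidence intervals of the 11 measured PDIL genes, left. On the right are the 10 tested other genes for folding in the endoplasmic reticulum and for the response to unfolded proteins. The genes past the threshold all lie above 0, from 0.32 to 0.97 on the left and from 0.27 to 1.70 on the right.

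The 6 GST genes matched by name were all measured. Of these 1 rose and 2 fell past the threshold and 3 stayed short of it, with a median of 0.00. That is 50.0% past it, against 28.5% of all tested probe sets. All 6 lie at or above the 75th percentile of signal, where 38.9% of all probe sets passed. The difference from these shares was not tested. GSTF1 (LOC4325710, also named GST-I), of the phi class, read 431.6 and 544.6 on the overexpressor arrays and 1227 and 1166 on the control arrays. Its groups lay far apart (log2 change -1.30, SE 0.15, 95% interval -1.65 to -0.95, adjusted p = 0.00198). GSTZ5 (LOC4332455), of the zeta class by its name, read 5228 and 4564 on the overexpressor arrays and 6903 and 6977 on the control arrays (-0.51, SE 0.09, adjusted p = 0.00945). The class of each GST gene was taken from its name and not checked by sequence. GSTU6 (LOC4349207), of the tau class, read 6746 and 5664 on the overexpressor arrays and 3850 and 4150 on the control arrays (0.63, SE 0.11, adjusted p = 0.00777). A dimmer GSTU6 probe set was at background on all arrays and was not tested.

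Among the genes matched by name, the other gene with each class name differed little. Genes of these classes under other names were not covered. GSTF2 (also named GST-II) read 15610 and 14912 on the overexpressor arrays and 14813 and 15754 on the control arrays (log2 change -0.0018, 95% interval -0.18 to 0.17). GSTU1 had a change of 0.05 (95% interval -0.29 to 0.39) and GSTZ3 of 0.0021 (95% interval -0.26 to 0.26). In each of these 3 genes the groups overlapped.

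Other redox genes were described with further lists. Among 10 genes of glutathione and ascorbate turnover 1 rose and 2 fell, while 7 stayed short of the threshold. All of these but GRC2 are APX or MDAR genes of ascorbate turnover, and no glutathione synthesis gene was in the list. GRC2, for cytosolic glutathione reductase, rose to 4727.3 ± 496 on the overexpressor arrays, against 3710.3 ± 68.6 on the control arrays (log2 change 0.35, adjusted p = 0.0403). The chloroplast ascorbate peroxidase genes APX7 (-0.60, adjusted p = 0.00384) and APX8 (-0.26, adjusted p = 0.041) fell. Among 24 thioredoxin, thioredoxin reductase and peroxiredoxin genes 3 rose and 7 fell, while 14 stayed short of it. The shares past the threshold were 30.0% and 41.7% in these lists, near the 28.5% of all tested probe sets and the 38.9% of those at or above the 75th percentile of signal. Trx03 read 6671 and 5664 on the overexpressor arrays and 13786 and 14490 on the control arrays (-1.20, SE 0.10, adjusted p = 0.000709), Trx18 fell by 0.87 on the log2 scale, and Trx25 rose by 0.50.

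TGA factors are the known binding partners of ROXY glutaredoxins in Arabidopsis, and NPR1 works with them in defence. Among 14 tested genes for TGA factors and NPR1 homologs 0 rose and 3 fell, each of them an NPR1 homolog, while 11 stayed short of the threshold. That is 21.4% past it, against 28.5% of all tested probe sets. TGAL4, too dim to be tested, read 70.7 and 54.7 on the overexpressor arrays and 26.0 and 10.1, at background, on the control arrays, at least 1.87-fold higher. NH1, the rice counterpart of NPR1, read 785 and 781 on the overexpressor arrays and 1162 and 1219 on the control arrays (log2 change -0.60, SE 0.10, adjusted p = 0.00834). NH2 and NH3 had changes of -0.57 and -0.84. The 1 ABCC transporter matched by name, ABCC13, had a change of -0.20 and did not pass.

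Some markers of tissues moved with the same contrast. Over all tested probe sets 15.4% were higher and 13.1% lower, and the difference of the marker counts from these shares was not tested. Of 10 anther and tapetum genes 8 were tested and 5 were lower. The summed signal of all 9 measured was 1642.2 and 1235.3 on the overexpressor arrays and 14938.8 and 15557.9 on the control arrays. Most of the control sums came from C6 (5288.5 and 5682.4), C4 (4115.2 and 3960.7) and RTS (3702.3 and 4044.3). RTS was at background (10.8 and 3.8) on the overexpressor arrays. MSP1 (0.37), TDR (-0.34) and EAT1 (-0.55) did not pass. Of 5 tested leaf mesophyll genes 3 were lower, with sums of 62914.4 and 59231.3 on the overexpressor arrays and 85377.6 and 88878.8 on the control arrays. Of 5 dividing-tissue genes 4 were higher, with sums of 3933.1 and 5437.5 on the overexpressor arrays and 2299.4 and 2425.7 on the control arrays. Of 6 root genes 2 were tested and 1 was lower (Lsi1, -2.19). Lsi2, too dim to be tested, read 25.0 and 18.5, at background, on the overexpressor arrays and 144.3 and 106.7 on the control arrays. That is at least 3.01-fold lower. NAS1, also too dim, went the other way, with 56.2 and 75.3 on the overexpressor arrays and 37.1 and 3.2 on the control arrays. In YSL15, not tested either, the groups overlapped. The root sums were 558.3 and 805.8 on the overexpressor arrays and 2101.3 and 2128.9 on the control arrays. Most of the control sums came from Lsi1 (1666.6 and 1756.1). Of 6 seed endosperm genes 3 were tested and 1 was higher (GLB1, 0.35). The endosperm sums were 4675.8 and 4117.2 on the overexpressor arrays and 3381.7 and 3703.4 on the control arrays. Most of each sum came from GLB1 (4083.3 and 3510.8 on the overexpressor arrays, 2884.6 and 3059.3 on the control arrays). GLUA-1, RP5 and RAG1 were at background on all arrays. The part of these tissues in the changes of the glutaredoxin, PDIL and GST genes was not tested.

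The scaling of the arrays bore on the smaller changes. Scaling to the hybridisation spikes moved the median change of all tested probe sets to 0.40, and centring each array on its median moved it to -0.02, against 0.08 as deposited. Under each of the 4 other scalings the 17 genes past the threshold kept their direction. After spike scaling GRXS7 and GSTZ5 both lay at -0.19 and no longer passed, the counts became 19 higher and 6 lower, and 8 PDIL genes were higher with a family median of 0.59, which is 0.19 above the median of all probe sets under that scaling. Over all probe sets that scaling gave 11571 higher and 2114 lower, against 4410 and 3760 as deposited. Median centring gave 3030 higher and 4631 lower probe sets, and 6 higher and 9 lower of the genes described here. After it GRXC8, GRXS11 and PDIL5-1 no longer passed.

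Leaving out a control array left fewer calls, and leaving out an overexpressor array did not. Without control replicate 1 there were 3 higher and 6 lower genes, and without control replicate 2 there were 4 and 5. PDIL1-4 and PDIL5-1 lost the call without either of them, so that 1 PDIL gene, PDIL2-3, passed in each case. GRXC8, GRXS1, GRXS7, GRXS11 and GSTZ5 also lost the call when either control array was left out. GRXS3 lost it without control replicate 2 (log2 change -2.23), and GSTU6 without control replicate 1 (0.57). Without overexpressor replicate 2 there were 5 higher PDIL genes. GRXC1, GRXC10, GRXC15, GRXS2, GRXS5, GRXS9, PDIL2-3 and GSTF1 passed in the same direction under every alternative in which they were tested, except that a required change of at least 2-fold leaves GRXC1, GRXS2 and GSTF1 of these.

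**Figure D4:**
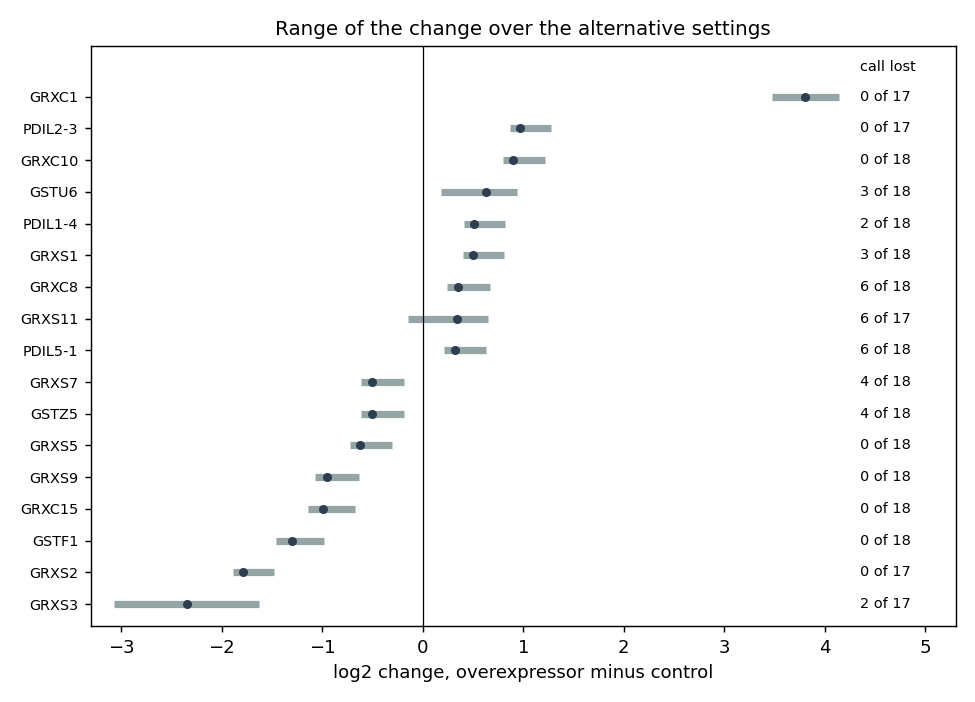
Log2 change (overexpressor minus control) of the 17 genes past the threshold, as a point, with the lowest and highest value over the alternative settings as a bar and, at the right, the number of alternatives in which the call was lost, leaving out the one that requires a change of at least 2-fold. The bar of GRXS11 is the only one that crosses 0 (-0.15 to 0.65), and GRXC1 ranges from 3.47 to 4.14.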

How the data were processed

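Array intensities of 57381 probe sets were used as the authors deposited them, on a linear scale. Their software was not given in the sources used here. Since the 2% trimmed mean equalled 500.1 on each array, no scaling was added. Of the probe sets, 22436 have 1 gene in the platform annotation, 95 have several and 34850 are unlisted. Names and synonyms came from the RefSeq gene table of assembly ASM3414082v1, in which all 17905 genes with a probe set were found. The members and lists were chosen with earlier results of these data known.

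After adding 3.6 (the 10th percentile of all values) and taking log2, which understates changes of dim transcripts, 123 control probe sets and those with a mean below the median were left out. The 28629 others were compared with limma 3.58.1 in R 4.3.3 (eBayes with a trend), with Benjamini-Hochberg adjustment over all of them and a threshold of 0.05. The number of arrays limits the precision. Background was the 95th percentile of 69 control probe sets per array.

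Named with all values were genes past the threshold with a change of at least 2-fold, GRXC1, GSTU6, GSTF1 and GSTZ5. The other genes past it and the 3 brightest of each family that did not pass were named with their change, and further members, values and list genes were added after the values were seen. Of the further lists up to 3 genes past the threshold with the smallest p were named. 4 list symbols that name several genes were left out, as were bip symbols with longer numbers, which name other proteins. No gene matched the list of other GST classes. The procedure was also run on simulated data with independent noise of equal spread in both groups. The replicate pairs here differ in spread, and none of the results above rests on that run. Alternatives covered scaling, pseudocount, filter, spread model, replicate block, left-out arrays, choice of probe sets and size of change.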

Additional observations from a re-analysis of the deposited data

How the results depend on the processing

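Of the 17 genes past the threshold 8 kept call and direction under every alternative in which they were tested other than a required change of at least 2-fold, and 9 lost the call under at least 1 of these. The 2-fold requirement removes 13 of the 17, which have smaller changes. GRXS3 lost the call without a trend of the spread (adjusted p = 0.0504) as well as without control replicate 2 (0.0501). The direction of GRXS11 turned with the mean of all its probe sets (-0.15), by the construction of that setting, since the 2 probe sets run opposite ways. Of the 18 genes not past, 12 passed and 11 changed sign under at least 1 alternative. Counts in all are given below as higher and lower, against 9 and 8. After spike scaling they were 19 higher in all, 9 glutaredoxin, 8 PDIL and 2 GST genes higher and 1 GST gene lower. Without a trend of the spread there were 4 and 5, with 2 glutaredoxin and 0 GST genes higher and 1 GST gene lower. With a change of at least 2-fold required there were 1 and 3, with 1 glutaredoxin, 0 PDIL and 0 GST genes higher and 2 glutaredoxin genes and 1 GST gene lower. Higher glutaredoxins numbered 3 after median centring and 3 with no filter, and with the probe sets of each gene averaged 0 GST genes were higher. Leaving out 1 array at a time gave 3 to 11 higher and 5 to 9 lower genes in all, 2 to 6 higher and 4 to 7 lower glutaredoxins, 1 to 5 higher and 0 lower PDIL genes, and 0 to 1 higher and 1 to 2 lower GST genes. The lone array of a group is then assumed to vary like the other group.

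Over all probe sets 4410 were higher and 3760 lower, against 11571 and 2114 after spike scaling, 2580 and 2461 without a trend, 1390 and 1558 without control replicate 1, and 1525 and 1697 without control replicate 2. The median absolute log2 difference of the overexpressor pair was 0.203, against 0.115 in the control pair.

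The sign turned in genes that did not pass. GSTF2 was 0.11 after quantile normalization, 0.10 after cyclic loess and 0.31 (adjusted p = 0.0478) after spike scaling, GSTU1 -0.01, -0.03 and, after median centring, -0.05. GSTZ3 was -0.048 after quantile normalization, -0.06 after cyclic loess, -0.10 after median centring, -0.011 without probe sets that may hybridise to several transcripts and -0.0045 with the mean of its probe sets. Median centring gave -0.06 for PDIL5-4, -0.06 for GRXC6 and -0.04 for GRXS6. Spike scaling gave 0.08 for PDIL1-2, 0.12 for PDIL2-1, 0.24 for GRXC3 and 0.13 for GRXS12. PDIL2-1 was 0.013 without probe sets that may hybridise to several transcripts, and GRXS4 was -0.014 with the mean of its probe sets. Leaving out 1 array gave -0.046 to 0.043 for GSTF2, -0.05 to 0.15 for GSTU1, -0.05 to 0.06 for GSTZ3, -0.06 to 0.14 for PDIL5-4, -0.25 to 0.62 for GRXC3 and -0.018 to 0.11 for GRXC6. The causes were not tested.

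The labels do not say what the replicate numbers share, and same-numbered arrays did not deviate together (correlation -0.0209 of the difference between replicates 1 and 2 in the overexpressor pair with that in the control pair). With the replicate block there were 8 higher and 8 lower genes, and PDIL5-1 was the one that lost the call. Signal limits what can be said of GRXC3 and GRXS3, each of which was not above background on 1 overexpressor array. It also limits PDIL1-2, PDIL1-3 and the control arrays of GRXC1, where signals were low but above background.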
